A study of Drosophila melanogaster with 16 samples.

Results

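The genes described here are the signals of the Hedgehog, Wingless and Dpp pathways of Drosophila melanogaster, together with receptors and feedback genes that read those signals. Of 10 genes chosen by symbol, 7 matched at least 1 probe set that the annotation gave to that gene alone, out of 11982 genes named in this way. They are hh and ptc of the Hedgehog pathway, Wnt6 and nkd of the Wingless pathway, and dpp, tkv and Dad of the Dpp pathway. Their 8 probe sets belong to a table of 18952. The other 3 genes, wg, fz3 and brk, were not analysed here. Of the 8 probe sets, 7 reached a log2 signal of 4 on at least 2 arrays and were tested. The exception was a second tkv probe set, which lay between 2.21 and 2.37 on every array except the wild-type brain arrays, where it read 4.18 and 2.91.

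The 3 pathways pattern the larval wing disc, the epithelial sac from which the adult wing develops. Posterior cells make Hedgehog, and anterior cells along the compartment boundary read it through Patched and Smoothened and respond by making Dpp, a BMP ligand that spreads through the disc and sets gene expression by its local level. Wingless, a Wnt ligand, is made along the boundary of the dorsal and ventral compartments. Several genes switched on by these signals, among them ptc, nkd and Dad, encode proteins that restrain the same signal.

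RNA was compared between 6 groups of larvae, all in the third instar, on 16 single-colour Affymetrix arrays. Wild-type wing discs and wild-type brain complexes came from larvae at day 5 after egg laying (2 arrays each). Discs and brain complexes of lgl27S3/lglE2S31 larvae, which lack lgl function according to the series' design, and of scrib1/scrib2 larvae came from larvae at day 9 (3 arrays for each tissue and genotype). The Lgl and Scribble proteins are scaffolds that keep epithelial cells polarised. Wherever a mutant is set against wild type, genotype and age change together. The wild-type strain and the number of larvae behind each array are not given in the sources used here, and the labels do not say that arrays of a group came from separate dissections, so p-values measure the spread between these samples, which may be technical. In bulk tissue, fewer cells of a type and less RNA per cell cannot be told apart.

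The l(2)gl signal was 10.62 ± 0.15 (mean ± SD of log2, n = 2) in wild-type discs against 3.63 ± 1.62 (n = 3) in lgl discs, and 9.41 ± 0.68 (n = 2) in wild-type brains against 2.41 ± 0.35 (n = 3) in lgl brains. The scrib signal did not separate scrib1/scrib2 discs (10.11 ± 0.22, n = 3) from wild type (10.25 ± 0.70, n = 2), so it does not check those labels. Between 40.1% and 43.1% of probe sets lay at 4 or more on an array. The pooled within-group SD was 0.65 and 0.66 log2 in the wild-type groups and 0.33 to 0.45 in the mutant groups. All 7 tested probe sets read lower on wild-type disc replicate 1 than on replicate 2, as did 51.5% of all tested probe sets, and 5 of the 7 did so in wild-type brains, against 47.9% of all.

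**Figure D1:**
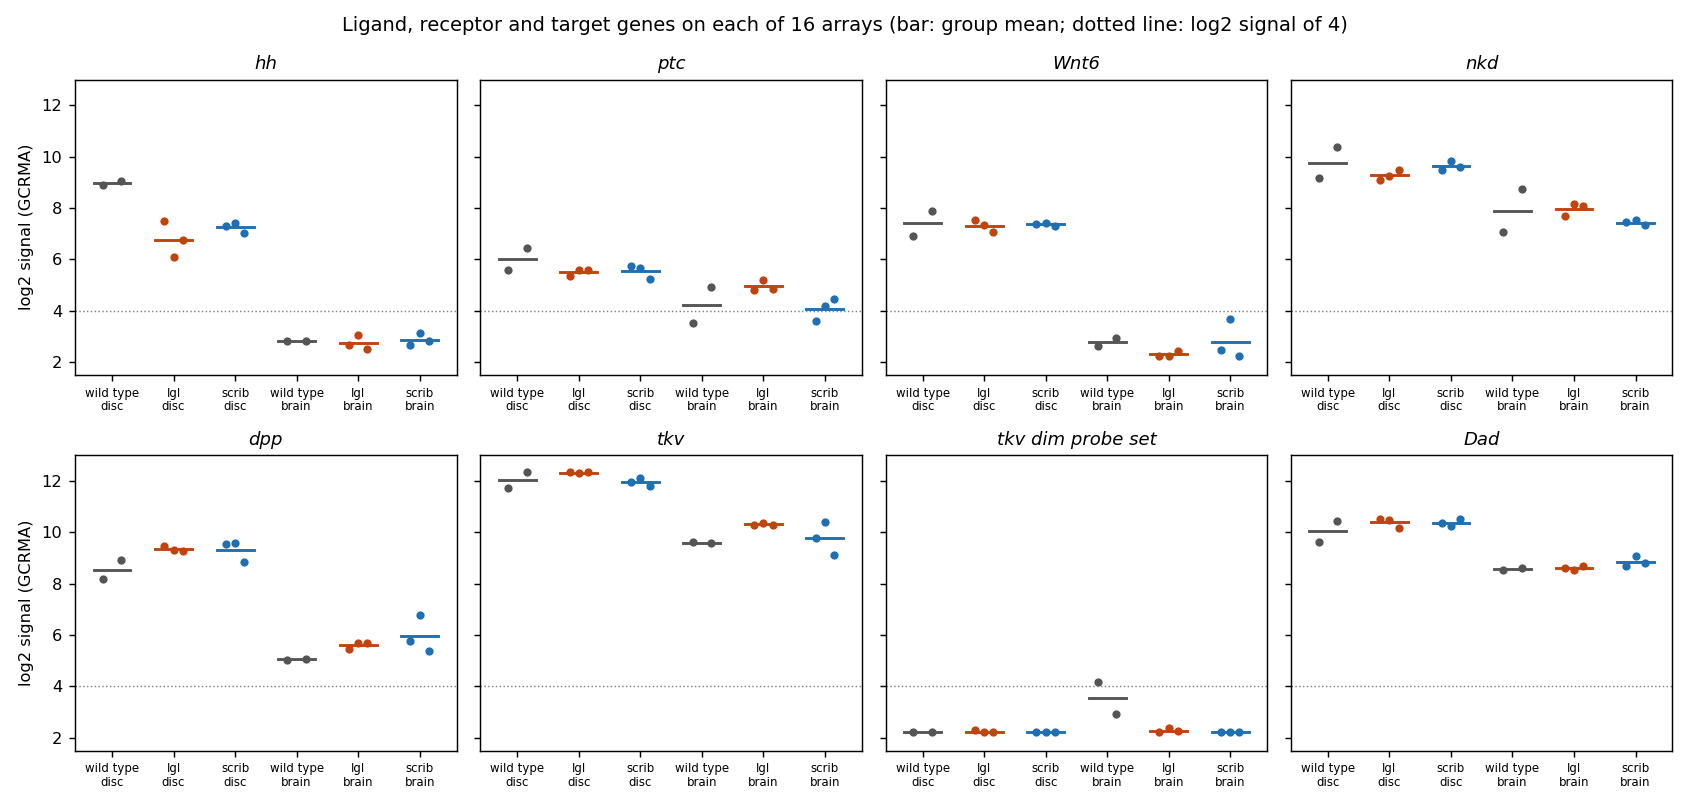
Log2 signal (vertical axis) of the 8 probe sets on each of the 16 arrays, grouped by tissue and genotype, with bars at group means. The dim tkv probe set was not tested. Signals of hh and Wnt6 lie below a log2 signal of 4 on every brain array, and hh is the gene whose mutant disc arrays all lie below both wild-type disc arrays.

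Expression of hh, which encodes the Hedgehog ligand, fell in the discs of both mutants. The log2 signal of its probe set (1626527_at, chromosome arm 3R) was 8.88 and 9.05 in wild-type discs. It was 7.48, 6.09 and 6.74 in lgl discs and 7.32, 7.42 and 7.04 in scrib discs. All 6 mutant disc arrays lay below both wild-type arrays. The lgl discs differed from wild type by -2.19 ± 0.32 log2 (SE; 95% interval -2.88 to -1.51), 4.57-fold lower with a limma adjusted p of 0.00037. In scrib discs the difference was -1.71 ± 0.32 (-2.39 to -1.02), 3.26-fold lower with an adjusted p of 0.0022. Both comparisons share the wild-type arrays. The lgl call was lost when only the 5 arrays compared were fitted (adjusted p = 0.058, range over all alternatives 4.8e-05 to 0.058), and the scrib call did not hold when arrays were weighted by group (adjusted p = 0.092, range 0.002 to 0.092). The mutants differed from each other by -0.49 ± 0.28 log2, lgl minus scrib (-1.10 to 0.12, adjusted p = 0.25), and their arrays overlapped. Without lgl disc replicate 1, the highest of its group, this difference was -0.84 with an adjusted p of 0.031 (range 0.031 to 0.77).

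In brain complexes the hh signal lay between 2.50 and 3.14 on all 8 arrays, below 4, so no fold is given there. The mutant change was -0.08 ± 0.32 log2 in lgl brains and 0.06 ± 0.32 in scrib brains (adjusted p = 0.89 and 0.91). The difference between the disc effect and the brain effect was -2.12 ± 0.45 for lgl (adjusted p = 0.0078) and -1.77 ± 0.45 for scrib (adjusted p = 0.024). Its brain values are near the floor of the table at 2.21, where a fall of hh could not be seen. The differences therefore restate the disc change, and their sizes are not measured. The scrib difference lost its call without wild-type disc replicate 2 (-1.68, adjusted p = 0.059), without wild-type brain replicate 1 (-1.77, 0.054) and without scrib disc replicate 3 (-1.66, 0.052), over a range of 0.011 to 0.52. For lgl the call did not hold when arrays were weighted by group (0.34, range 0.001 to 0.34).

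Marker genes of other tissues also differed between these disc groups. The mean log2 signal of 9 measured wing disc genes, of 10 listed, was 8.68 and 9.17 in wild-type discs, 7.33 to 7.69 in lgl discs and 7.74 to 8.03 in scrib discs, and of these genes only Doc2 lay below 4 on every array of each mutant disc group. Neuroblast genes (6 of 6 measured) averaged 4.89 and 4.97 in wild-type discs, 6.71 to 8.68 in lgl discs and 4.85 to 5.39 in scrib discs, where wor, ase and pros lay below 4 on every array. Salivary gland genes (5 of 5) averaged 5.88 and 10.08 in wild-type discs against 2.37 to 2.71 and 2.54 to 3.59 in lgl and scrib discs. Fat body genes (4 of 7) averaged 10.33 and 13.16 in wild type against 5.50 to 8.03 and 5.56 to 6.45, and muscle genes (4 of 7) averaged 5.45 and 6.98 against 4.21 to 4.60 and 4.55 to 4.84. The log2 difference between 3′ and 5′ probe sets of the EIF-4A control, a measure of RNA integrity, averaged 2.32 over the wild-type discs, 2.22 over those of lgl and 1.78 over those of scrib. The other controls did not share this order, with averages of 0.84, 0.87 and 0.92 for ACTIN and 0.51, 0.62 and 0.34 for GAPDH. The part of these differences in the hh result was not tested.

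Wnt6, a Wnt ligand encoded beside wg, had disc signals that overlapped between all 3 genotypes. Its probe set (1627979_at, arm 2L) read 6.92 and 7.88 in wild-type discs, 7.54, 7.35 and 7.05 in lgl discs, and 7.38, 7.40 and 7.31 in scrib discs. The mutant minus wild-type difference was -0.08 ± 0.36 log2 in lgl discs (-0.87 to 0.71) and -0.04 ± 0.36 in scrib discs (-0.83 to 0.75), with adjusted p of 0.93 and 0.99. On the 8 brain arrays Wnt6 lay between 2.24 and 3.67, and no fold is given.

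The dpp signal was higher in mutants than in wild type in each of the 4 comparisons, but none passed the test. Its probe set (1630026_s_at, arm 2L) read 8.18 and 8.93 in wild-type discs, 9.48, 9.32 and 9.27 in lgl discs, and 9.55, 9.57 and 8.86 in scrib discs. The lgl disc arrays all lay above wild type, while scrib disc replicate 3 fell between the 2 wild-type arrays. The disc differences were 0.79 ± 0.35 log2 for lgl (0.03 to 1.56, unadjusted p = 0.042, adjusted p = 0.14) and 0.77 ± 0.35 for scrib (0.00 to 1.53, unadjusted p = 0.049, adjusted p = 0.14). In brains dpp read 5.04 and 5.07 in wild type, 5.47, 5.71 and 5.71 in lgl and 5.78, 6.78 and 5.38 in scrib, with no overlap between either mutant and wild type. The brain differences were 0.58 ± 0.35 for lgl (-0.19 to 1.34, adjusted p = 0.25) and 0.92 ± 0.35 for scrib (0.16 to 1.69, adjusted p = 0.058). The scrib brain difference passed without scrib brain replicate 3 (1.22, adjusted p = 0.019) and with quantile normalization added (1.07, 0.040), over a range of 0.019 to 0.42. Leaving out wild-type disc replicate 1 or 2 moved the lgl disc difference within 0.42 to 1.17 and never past the threshold (adjusted p 0.060 to 0.64 over all alternatives).

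The receptors are ptc, which encodes the Hedgehog receptor and is itself switched on by Hedgehog signalling, and tkv, which encodes a type I receptor for Dpp. The ptc probe set (1639749_a_at, arm 2R) read 5.57 and 6.44 in wild-type discs, 5.35, 5.57 and 5.59 in lgl discs, and 5.76, 5.67 and 5.22 in scrib discs. Both mutants overlapped wild type, with differences of -0.50 ± 0.38 log2 (-1.33 to 0.32) and -0.45 ± 0.38 (-1.28 to 0.37) and adjusted p of 0.40 and 0.44. In brains ptc read 3.53 and 4.91 in wild type, 4.82, 5.20 and 4.85 in lgl and 3.59, 4.17 and 4.47 in scrib. The lgl brain arrays all lay above the scrib brain arrays, by 0.88 ± 0.34 log2 (0.15 to 1.62, unadjusted p = 0.023, adjusted p = 0.12, range 0.020 to 0.33). Wild-type brain replicate 2 weighs on ptc: without it, lgl brains exceeded wild type by 1.42 (adjusted p = 0.010, range 0.010 to 0.96) against 0.74 with it (adjusted p = 0.17). The wild-type array then left reads 3.53, below 4, so the size of the 1.42 difference is not measured, and the 0.74 likewise rests in part on that array (at least 1.42-fold).

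The brighter tkv probe set (1636221_a_at, arm 2L) read 11.74 and 12.36 in wild-type discs, 12.34, 12.30 and 12.35 in lgl discs, and 11.98, 12.13 and 11.80 in scrib discs. Neither mutant separated from wild type, at 0.28 ± 0.28 log2 for lgl (-0.34 to 0.90, adjusted p = 0.56) and -0.08 ± 0.28 for scrib (-0.70 to 0.54, adjusted p = 0.90). In brains it read 9.64 and 9.57 in wild type, 10.30, 10.37 and 10.30 in lgl, and 9.77, 10.41 and 9.14 in scrib. The lgl brain arrays were close to each other and above both wild-type arrays by 0.72 ± 0.28 log2 (0.10 to 1.34, unadjusted p = 0.026, adjusted p = 0.083), while the scrib arrays spread across both groups. Between lgl and scrib brains the difference was 0.55 ± 0.25 (adjusted p = 0.19), and 0.87 without scrib brain replicate 2 (adjusted p = 0.027, range 0.027 to 0.57).

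The feedback genes are nkd, which encodes Naked cuticle, an inhibitor that Wingless signalling induces, and Dad, an inhibitory Smad that Dpp signalling induces. The nkd probe set (1630361_at, arm 3L) read 9.18 and 10.37 in wild-type discs, 9.10, 9.26 and 9.49 in lgl discs, and 9.50, 9.85 and 9.60 in scrib discs, with differences of -0.49 ± 0.41 (-1.38 to 0.40) and -0.12 ± 0.41 log2 (-1.01 to 0.76) and adjusted p of 0.46 and 0.89. These too rest on the wild-type arrays, which differ from each other more than the mutants do from their mean. Without wild-type disc replicate 1 the differences were -1.09 and -0.72 (adjusted p = 0.15 and 0.30), and without replicate 2 they were 0.11 and 0.47 (0.92 and 0.53). Without both wild-type replicate 1 arrays, of disc and brain, they passed at the same values (0.0044 and 0.026), over ranges of 0.0044 to 0.92 and 0.026 to 1. In brains nkd read 7.06 and 8.73 in wild type, 7.71, 8.15 and 8.07 in lgl, and 7.44, 7.53 and 7.34 in scrib. All mutant brain arrays lay between the 2 wild-type brain arrays, which differed by more than any pair within a mutant group. Without wild-type brain replicate 1, the scrib brain difference moved from -0.45 (adjusted p = 0.42) to -1.29 (adjusted p = 0.020, range 0.0013 to 0.73).

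The Dad probe set (1633556_s_at, arm 3R) read 9.64 and 10.44 in wild-type discs, 10.52, 10.48 and 10.19 in lgl discs, and 10.37, 10.25 and 10.54 in scrib discs. The mutant arrays clustered near wild-type replicate 2, and the differences of 0.36 ± 0.21 for lgl (-0.11 to 0.82, adjusted p = 0.29) and 0.35 ± 0.21 for scrib (-0.12 to 0.81, adjusted p = 0.28) did not pass. They rest on the wild-type arrays: without wild-type disc replicate 2 they were 0.76 and 0.75 (adjusted p = 0.022 and 0.023), and without replicate 1 they were -0.05 for each, over ranges of adjusted p of 0.022 to 0.95 and 0.023 to 0.92. In brains Dad lay between 8.52 and 9.07 on all 8 arrays.

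Across the 7 tested genes, 1 was called in lgl discs (lower) and 1 in scrib discs (lower), in both cases hh. Of all 8819 tested probe sets, 6.13% were called lower in lgl discs (18.1% in either direction) and 10.6% lower in scrib discs (23.2% in either direction). In brains 0 of 7 were called in either mutant by limma, against backgrounds of 25.3% called in lgl and 34.8% in scrib. At an unadjusted limma p under 0.05 there was 1 gene in lgl brains (tkv) and 1 in scrib brains (dpp). In the discs of each mutant there were 2 (hh and dpp). No share of all probe sets was computed at that unadjusted level. Of the 7, 2 did not overlap wild type in lgl discs, 1 in scrib discs, 3 in lgl brains and 2 in scrib brains, where 48.4%, 47.9%, 47.5% and 50.7% of all tested probe sets did not overlap. Between lgl and scrib, 0 of 7 were called by limma in discs (background 20.5%, 0 at an unadjusted p under 0.05) or in brains (11.5%, 1 at an unadjusted p under 0.05, ptc), and 2 of 7 did not overlap in each tissue (54.5% and 40.7% of all). The difference between disc and brain effects was called for hh alone in each mutant, with backgrounds of 13.5% for lgl and 11.3% for scrib (4.5% and 4.97% called in the direction of hh). On every brain array hh lay below 4, so this call restates its disc change.

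**Figure D2:**
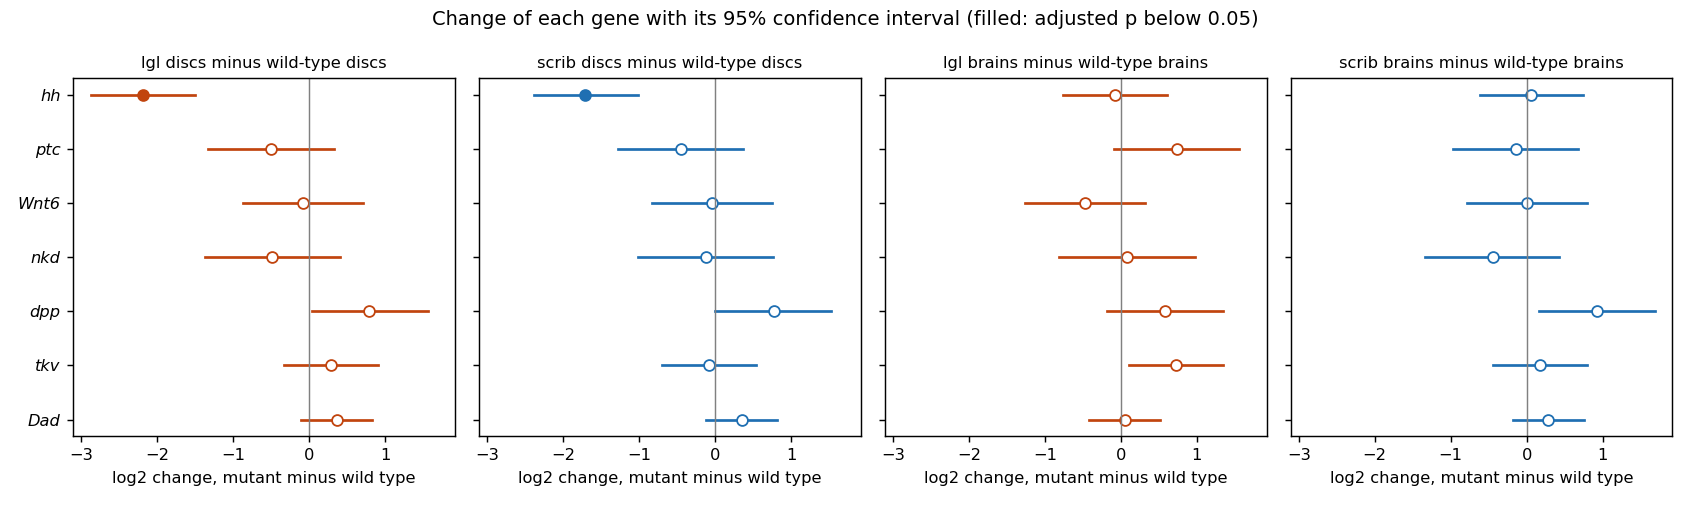
Log2 change of each tested gene in each comparison of a mutant group with the wild type of the same tissue (points, with 95% intervals from limma). The hh intervals in discs, -2.88 to -1.51 for lgl and -2.39 to -1.02 for scrib, lie below 0 and passed the adjusted test.

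The 7 genes were also compared between wild-type discs and wild-type brain complexes, a comparison in which 20.5% of all tested probe sets were called higher in discs (42.8% in all) and 55.7% did not overlap. Because hh and Wnt6 passed the filter through the disc arrays alone, no count over the genes and no test of hh or Wnt6 is read from it. The disc minus brain difference was 6.15 ± 0.35 log2 for hh (at least 31.2-fold) and 4.62 ± 0.40 for Wnt6 (at least 10.5-fold). It was 3.50 ± 0.39 for dpp (11.3-fold, adjusted p = 7.1e-06), 2.45 ± 0.31 for tkv (5.45-fold, 2.8e-05) and 1.47 ± 0.23 for Dad (2.77-fold, 0.00019). For nkd it was 1.88 ± 0.45 (3.69-fold, adjusted p = 0.0041), a call that ended when wild-type disc replicate 2 was left out (1.28, adjusted p = 0.053, with a range of 0.00011 to 0.22). For ptc it was 1.78 ± 0.42 (at least 2.93-fold, adjusted p = 0.0035). Fitted on the 4 wild-type arrays alone, the calls of ptc (0.17), nkd (0.22) and Dad (0.090) were lost.

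For ptc, nkd, dpp, tkv and Dad, the lowest disc group by mean did not overlap the highest brain group. Values of hh and Wnt6 below 4 have no measured order among the brain groups. Among the discs, wild type ranked first for hh, ptc, Wnt6 and nkd, and lgl ranked first for dpp, tkv and Dad. The only neighbours within the discs whose arrays did not overlap were wild type and scrib for hh (1.71 apart) and scrib and lgl for nkd (0.37 apart). Within the brains they were wild type and lgl for Wnt6 (0.47 apart, both below 4) and lgl and wild type for dpp (0.58 apart). The other neighbours within a tissue overlapped.

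Other genes of the Hedgehog pathway were examined from a list of 19, of which 16 were tested and 3 were not analysed here. In lgl discs 3 of 16 fell and 0 rose, and in scrib discs 4 fell and 1 rose, against 18.2% and 22.8% of all 7213 genes called. The median log2 change of the list was -0.17 and -0.08, against 0.02 and 0.01 over all genes. The strongest falls were in kn and en. The en gene encodes the homeodomain protein that specifies the posterior compartment and maintains hh expression, and kn encodes a transcription factor that Hedgehog signalling induces between the central wing veins.

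The kn signal was 7.84 and 8.91 in wild-type discs, 4.41, 5.84 and 4.87 in lgl discs, and 3.35, 2.88 and 2.75 in scrib discs. It was 10.1-fold lower in lgl (-3.34 ± 0.42 log2, adjusted p = 0.00013) and at least 20.8-fold lower in scrib (-5.38 ± 0.42, 2.5e-06), and at least 2.05-fold higher in lgl than in scrib discs (2.04 ± 0.37, 0.0021). In brains kn stayed between 7.42 and 9.17. The en signal was 9.55 and 10.07 in wild-type discs, 7.90, 8.26 and 8.04 in lgl discs, and 8.33, 8.05 and 8.15 in scrib discs. Both mutants lay below both wild-type arrays, 3.35-fold (-1.74 ± 0.28, adjusted p = 0.00078) and 3.10-fold (-1.63 ± 0.28, 0.0012).

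The en paralog inv, 2.17-fold lower in lgl discs (-1.12 ± 0.26, adjusted p = 0.0091), lost its call without wild-type disc replicate 2 (-0.71, 0.093, range 0.00043 to 0.093). In scrib discs rdx, a Hedgehog target whose product degrades the transcription factor Ci, was 2.61-fold lower (-1.38 ± 0.24, 0.0014). The ubiquitin ligase subunit slmb was 1.47-fold lower there (-0.55 ± 0.16, 0.023), a call lost without wild-type disc replicate 2 (-0.32, 0.22) and without any of the 3 scrib disc replicates (0.053 to 0.058), over a range of 0.0021 to 0.22. The signal transducers smo and ci, chosen for their roles after their values were seen, were not called in discs. The smo difference was -0.18 ± 0.12 in lgl and -0.33 ± 0.12 in scrib discs (adjusted p = 0.34 and 0.065), and the ci difference was 0.32 ± 0.24 and -0.05 ± 0.24 (0.40 and 0.94).

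**Figure D3:**
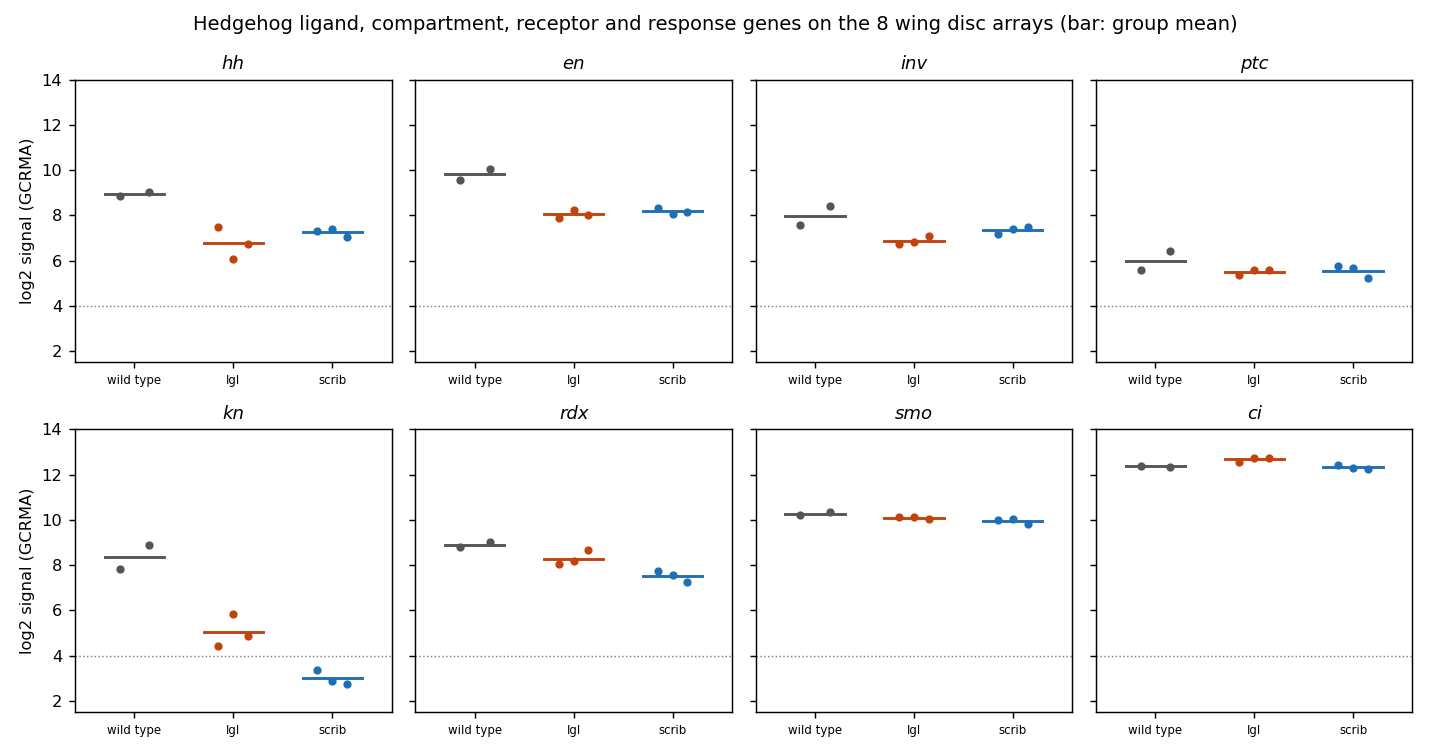
Log2 signal (vertical axis) of 8 Hedgehog pathway genes on the 8 wing disc arrays by genotype, with bars at group means and a dotted line at 4. The arrays of hh, en, inv, kn, rdx and smo are lower in both mutants than in wild type, and kn lies below 4 on the 3 scrib arrays. Of all tested probe sets, 48.4% did not overlap wild type in lgl discs and 47.9% in scrib discs.

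Of 27 further Wingless pathway genes, 16 were not analysed here and 9 were tested. In discs 1 of 9 rose and 0 fell in lgl, and 1 rose and 1 fell in scrib (list medians -0.01 and -0.40). Of all genes, 18.2% were called in lgl discs and 22.8% in scrib discs, with medians of 0.02 and 0.01. The gene that rose in both was Swim, which encodes a secreted protein that helps Wingless spread. Its signal was 6.51 and 5.91 in wild-type discs, 8.95, 9.90 and 9.70 in lgl discs, and 8.07, 8.27 and 7.91 in scrib discs, 9.88-fold (3.30 ± 0.32, adjusted p = 1.9e-05) and 3.66-fold higher (1.87 ± 0.32, 0.0014). Swim was 2.70-fold higher in lgl than in scrib discs (1.43 ± 0.29, 0.0040). In the same discs the mean signal of glial genes (6 of 7 measured) was 6.98 and 7.04 in wild type, 8.07 to 8.52 in lgl and 6.64 to 6.86 in scrib, with gcm below 4 on every wild-type and scrib array. That of hemocyte genes (7 of 7) was 5.12 and 6.33, 6.68 to 8.06 and 5.00 to 5.42, with NimC1 below 4 in wild type and eater and srp in scrib. Neuronal genes (9 of 10) averaged 3.18 and 3.84, 4.55 to 4.99 and 3.10 to 3.31, with brp, VGlut and para below 4 on every disc array. Eye disc genes (8 of 8) averaged 4.63 and 5.04, 5.96 to 6.32 and 4.11 to 4.38, with gl and ato below 4 on every disc array. The part of such cells in the Swim signal, which was 9.88 and 11.03 in wild-type brains, was not tested. The fall was in Dll, a distal target of Wingless, in scrib discs (-1.57 ± 0.42, 2.96-fold, 0.017), a call lost without wild-type disc replicate 2 (-0.89, 0.19, range 0.0020 to 0.19).

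Of 23 further Dpp pathway genes, 18 were tested, 3 did not pass the filter and 2 were not analysed here. In lgl discs 4 of 18 fell and 2 rose, and in scrib discs 2 fell and 3 rose (list medians -0.07 and -0.03). Against this, 18.2% and 22.8% of all genes were called, with medians of 0.02 and 0.01. The Dpp targets bi and salr, T-box and zinc finger transcription factors of the wing pouch, fell in lgl discs by 1.70 ± 0.22 (3.25-fold, adjusted p = 0.00018) and 1.65 ± 0.25 (3.13-fold, 0.0005) on the log2 scale. In scrib discs bi fell by 1.52 ± 0.22 (2.87-fold, 0.0004), and salr, at 7.77, 7.99 and 7.67 against 7.79 and 8.40 in wild type, was 2.57-fold higher than in lgl discs (-1.36 ± 0.22, lgl minus scrib, 0.00095). Both bi and salm, another target, also stand in the wing disc marker list above. The BMP type II receptor gene wit was lower in both mutants (-1.12 ± 0.22 and -1.11 ± 0.22, each with an adjusted p of 0.0029).

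Among genes of ligands and of proteins that act on them, Actbeta, which encodes an activin-type ligand, read 3.69 and 3.34 in wild-type discs, 5.93, 6.01 and 5.06 in lgl discs, and 3.03, 3.22 and 2.35 in scrib discs, and was called in lgl discs (at least 3.17-fold, 2.15 ± 0.31, adjusted p = 0.00041) and between the mutants (at least 3.17-fold, 2.80 ± 0.28, 2.1e-05). The lgl discs were also the discs with the higher neuroblast signal given above, and the part of such cells in the Actbeta signal was not tested. In scrib discs tld, a protease that frees Dpp from its inhibitors, rose 2.74-fold (1.46 ± 0.29, 0.0035). The rise of magu, a secreted modulator of Dpp spread, was 1.53-fold there (0.61 ± 0.15, 0.012) and was lost without wild-type disc replicate 2 (0.60, 0.054, range 0.0088 to 0.11). The ligand gene daw averaged 5.89 in wild-type discs, 8.85 in lgl discs and 8.45 in scrib discs. It was 7.75-fold higher in lgl (2.95 ± 0.71, adjusted p = 0.012) and 5.9-fold higher in scrib (2.56 ± 0.71, 0.022). Its lgl disc arrays spread from 6.88 to 10.25, and no alternatives are given here for these daw calls.

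**Figure D4:**
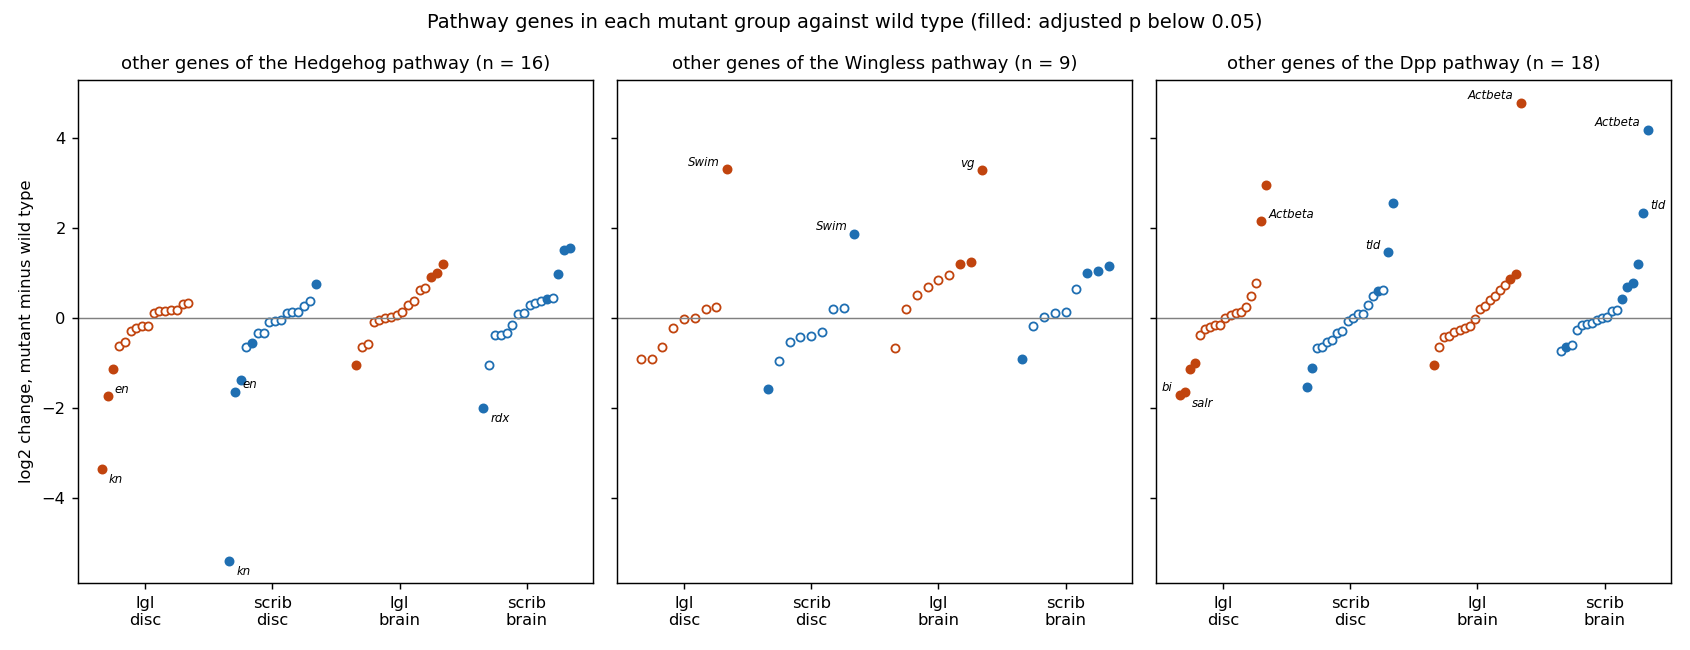
Log2 change of every tested gene of the 3 pathway lists in each mutant group against wild type of the same tissue, ordered by size within each group (filled points passed the adjusted test). The lowest points are kn in discs (-3.34 in lgl and -5.38 in scrib) and the highest are Actbeta in brains (4.78 and 4.18).

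In brain complexes 3 of 16 Hedgehog list genes rose and 1 fell in lgl, and 4 rose and 1 fell in scrib, against 25.5% and 35.1% of all genes called. For the Wingless list 3 of 9 rose and 0 fell in lgl, and 3 rose and 1 fell in scrib. For the Dpp list 3 of 18 rose and 1 fell in lgl, and 6 rose and 1 fell in scrib. List medians were 0.10, 0.85 and 0.10 in lgl and 0.20, 0.13 and 0.01 in scrib, against 0.04 and 0.09 over all genes.

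The largest brain changes were in Actbeta and vg. Actbeta read 4.61 and 3.92 in wild-type brains, 9.21, 8.89 and 9.05 in lgl brains, and 8.43, 8.43 and 8.49 in scrib brains, at least 26.8-fold (4.78 ± 0.31, adjusted p = 9.9e-07) and at least 17.7-fold higher (4.18 ± 0.31, 2.0e-06). The wing selector gene vg, which both Wingless and Dpp act on in the disc, read 4.17 and 5.36 in wild-type brains, 8.14, 8.19 and 7.82 in lgl brains, and 4.88, 4.96 and 4.79 in scrib brains. All 3 lgl arrays stood above all others, 9.73-fold above wild type (3.28 ± 0.34, 5.4e-05) and 9.01-fold above scrib (3.17 ± 0.31, 3.2e-05). The wing disc marker list, which holds vg, averaged 5.47 to 5.61 in lgl brains against 5.23 and 5.82 in wild-type and 5.01 to 5.38 in scrib brains, with Doc1, Doc2 and pdm2 below 4 on every lgl brain array.

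In scrib brains tld rose 5.04-fold over wild type (2.33 ± 0.29, adjusted p = 9.8e-05) and was 3.29-fold higher than in lgl brains (-1.72 ± 0.26, lgl minus scrib, 0.0011). The Hedgehog target rdx was 3.99-fold lower in scrib brains (-1.99 ± 0.24, 7.7e-05) and 2.06-fold lower in lgl brains (-1.04 ± 0.24, 0.0082). The lgl call of rdx was lost without wild-type brain replicate 1 (-0.76, 0.095, range 0.0034 to 0.24). Neuroblast genes averaged 9.19 and 9.71 in wild-type brains, 11.17 to 11.35 in lgl and 10.55 to 11.20 in scrib brains, and neuronal genes (9 of 10 measured) 7.83 and 7.88, 6.75 to 6.77 and 6.35 to 6.43. The ring gland list averaged 8.14 and 8.15 in wild-type, 4.26 to 5.23 in lgl and 5.21 to 6.18 in scrib brains. In it the listed symbol phm was matched to Phm, a different gene, which averaged 10.7, 10.37 and 10.43 in these groups. The list averages are therefore not those of ring gland genes alone. Of its other genes, dib was below 4 on every brain array and nvd on every mutant brain array. Fat body genes (4 of 7) averaged 7.44 and 8.46 in wild-type, 8.66 to 11.02 in lgl and 7.77 to 11.91 in scrib brains. Hemocyte genes (7 of 7) averaged 5.64 and 5.82, 6.14 to 7.58 and 5.79 to 6.30, with srp below 4 in wild type and scrib. Salivary gland genes (5 of 5) averaged 2.74 and 5.19, 2.55 to 3.65 and 2.43 to 7.62, with Sgs5 below 4 in wild type and lgl. The EIF-4A difference was 2.51 in wild-type brains, 2.24 in lgl and 1.79 in scrib brains. That of ACTIN was 0.99, 0.81 and 0.97, and that of GAPDH 0.61, 0.6 and 0.61. The part of these marker and control differences in the brain results was not tested.

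**Figure D5:**
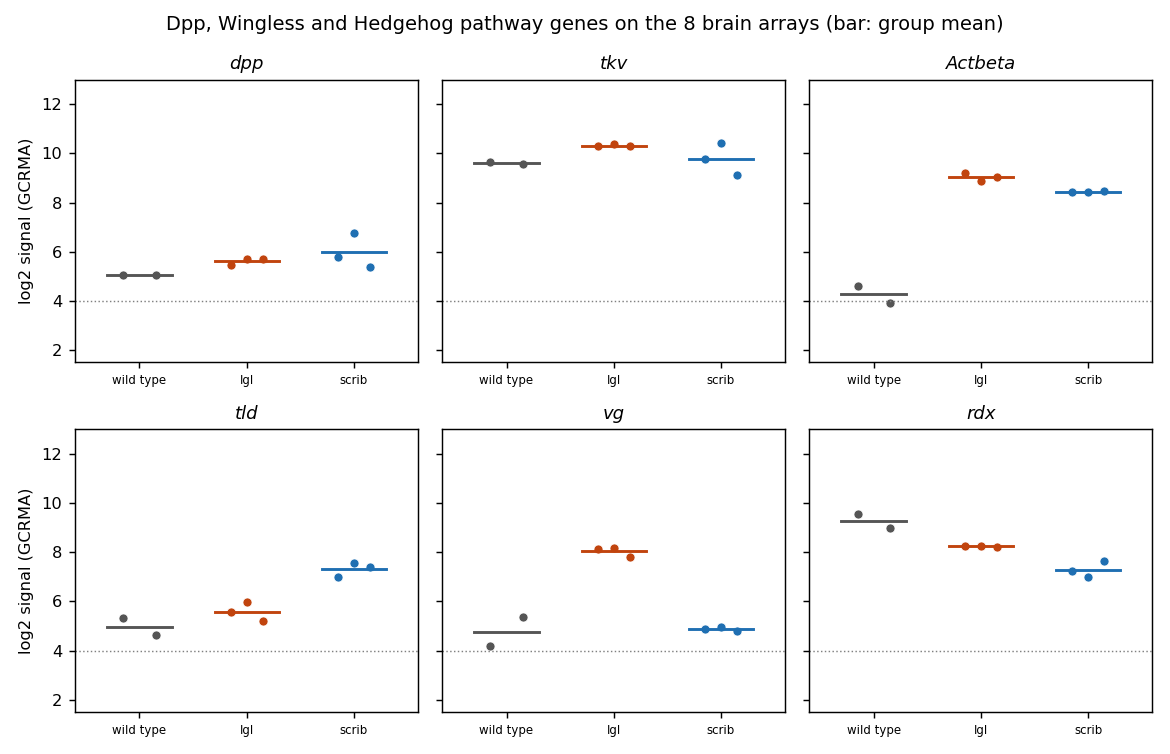
Log2 signal (vertical axis) of 6 genes on the 8 brain complex arrays by genotype, with bars at group means and a dotted line at 4. The Actbeta arrays of both mutants lie at 8.43 or above while wild type lies below 5, and vg is high on the 3 lgl arrays. The dpp arrays of both mutants and the tkv arrays of lgl lie above wild type without passing the adjusted test. The tkv arrays of scrib overlap wild type.

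The remaining brain calls were smaller. Of the named brain calls against wild type, those of Actbeta, vg and tld and that of rdx in scrib were kept in every alternative tried, and each of the others was lost when only the groups compared were fitted. The Hedgehog co-receptor genes boi and ihog rose in scrib brains, 2.83-fold (1.5 ± 0.25, adjusted p = 0.00062) and 2.93-fold (1.55 ± 0.33, 0.0033), where ihog was 0.93 without wild-type brain replicate 1. In lgl brains boi (0.90 ± 0.25, 0.019), ihog (1.21 ± 0.33, 0.019) and the BMP ligand gene gbb (0.97 ± 0.27, 0.020) lost their calls without wild-type brain replicate 1, with values of 0.44, 0.58 and 0.40 (adjusted p = 0.23, 0.25 and 0.25), and were 1.36, 1.83 and 1.54 without replicate 2. Over all alternatives their adjusted p ranged from 0.00088 to 0.23, 0.00097 to 0.25 and 0.00031 to 0.25. In scrib brains gbb rose by 1.19 ± 0.27 (0.0046), or 0.62 without wild-type brain replicate 1.

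The Wnt acyltransferase gene por rose in lgl brains (1.21 ± 0.23, adjusted p = 0.0030) and scrib brains (1.04 ± 0.23, 0.0042), and was 0.76 and 0.59 without wild-type brain replicate 1. The Hedgehog acyltransferase gene rasp rose by 1.0 ± 0.21 (0.0054) and 0.98 ± 0.21 (0.0038). In lgl brains salr fell by 1.04 ± 0.25 (0.0097) and the Smad gene Mad rose by 0.87 ± 0.23 (0.015). The Mad call was lost without wild-type brain replicate 2 (0.69, 0.064) and without lgl brain replicate 1 (0.72, 0.057), over a range of 0.010 to 0.27. In scrib brains the glypican gene dlp fell by 0.90 ± 0.25 (0.014), a call lost without wild-type brain replicate 2 (-0.65, 0.099, range 0.0010 to 0.15), and the receptor gene sax rose by 0.43 ± 0.12 (0.013).

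Calls of 3 further genes were lost in most recomputations that left out an array. They were ac in lgl brains (1.25 ± 0.39, adjusted p = 0.033, both group means below 4), and Swim (1.0 ± 0.32, 0.030) and Dll (1.16 ± 0.42, 0.048) in scrib brains. Without wild-type brain replicate 1 they were 1.17, 0.43 and 0.65 (0.15, 0.35 and 0.36), over ranges of 0.014 to 0.48, 0.0022 to 0.35 and 0.017 to 0.37.

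Between lgl and scrib, the remaining called genes of these lists were small differences. In discs rdx was higher in lgl (0.77 ± 0.21, adjusted p = 0.024) and magu lower (-0.47 ± 0.14, 0.028). Without lgl disc replicate 3 they were 0.59 and -0.36 (0.11 and 0.13), and without scrib disc replicate 3 they were 0.65 and -0.38 (0.11 and 0.13), over ranges of 0.0043 to 0.11 and 0.0054 to 0.13. In brains rdx (0.95 ± 0.21, 0.013) and Axn, a scaffold of the complex that destroys Armadillo (0.88 ± 0.25, 0.042), were higher in lgl, and magu (-0.57 ± 0.14, 0.018) and salr (-0.88 ± 0.22, 0.022) lower. Leaving out scrib brain replicate 2 ended all 4 calls, at 0.81, 0.76, -0.51 and -0.82 (0.059, 0.14, 0.070 and 0.077), over ranges of 0.0060 to 0.059, 0.0016 to 0.14, 0.0085 to 0.077 and 0.0072 to 0.086.

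Between wild-type discs and brains, 11 of 16 Hedgehog list genes were higher in discs and 0 lower, 4 of 9 Wingless list genes were higher and 1 lower, and 12 of 18 Dpp list genes were higher and 1 lower. Of all genes, 42.9% were called in either direction, and 20.5% of all tested probe sets were called higher in discs. The Wingless count includes ac, at 2.45 and 2.61 in wild-type brains, which passed the filter only through the disc arrays. No test of ac is read from this comparison. List medians were 1.47, 0.70 and 1.32, against 0.01 over all genes. Examples were en (31.0-fold, 4.95 ± 0.30, adjusted p = 4.9e-08), vg (33.2-fold, 5.05 ± 0.38, 2.2e-07), ihog (17.0-fold, 4.09 ± 0.36, 1.0e-06) and tld (8.10-fold, 3.02 ± 0.32, 4.8e-06). Swim was 19.0-fold lower in discs (-4.25 ± 0.35, 5.8e-07).

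Each of the 7 genes was set beside all other tested genes by the root mean square difference between their log2 signals over the 16 arrays, each centred on its own mean. The genes most like hh were Doc1 (0.47 log2) and yellow-e2 (0.52). For Wnt6 they were Rab23 (0.51) and ds (0.52), for dpp pwn (0.30) and melt (0.33), for ptc elB (0.31) and psq (0.32), for tkv Tollo (0.25) and Cont (0.27), for nkd Hr78 (0.32) and cic (0.33), and for Dad GstD1 (0.22) and Myd88 (0.26). The 16 arrays share tissue and genotype, so these values describe likeness over the same 6 groups.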

How the data were processed

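Total RNA of dissected discs and brain complexes, 6 µg per sample, was biotin-labelled and hybridised, per the labels. The deposited values are log2 signals that the authors made with GCRMA, per the submitters' processing notes, with no version given. GCRMA corrects background and normalizes between arrays, so low values compress toward a floor of 2.21. The authors' file was used as deposited. Of 18952 probe sets, 13647 carried 1 gene symbol, 402 several and 4720 none, and 183 were controls, which were left out. Symbols came from the platform annotation and chromosome arms from RefSeq. Probe sets at 4 or more on at least 2 arrays, 8819 in all, entered a limma fit (version 3.58.1, R 4.3.3) with a mean for each of 6 groups and 10 residual degrees of freedom. Calls needed a Benjamini-Hochberg adjusted p below 0.05 within each of 9 contrasts. For lists, each of 7213 genes was represented by its brightest probe set. Folds come from group means. Arrays of the dimmer group below 4 were set to 4, and the fold is then written as at least that large. Each list names up to 4 called genes per contrast with the smallest adjusted p, and daw in discs is given beyond them. Calls were recomputed without a filter, with a filter at 6, with other variance and normalization choices, and without each array. Leaving out both wild-type replicate 1 arrays was chosen after seeing the data. Leaving out 1 wild-type array leaves a lone array, which is assumed to vary like the other groups. The genes and lists were chosen with earlier results of these data known. Figures were drawn with matplotlib 3.10.9.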

Additional observations from a re-analysis of the deposited data

Results flagged for a closer look

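For the genes below, the disc change minus the brain change of the same mutant (log2) passed limma's test of the difference itself. For hh the difference was -2.12 in lgl (adjusted p = 0.0078) and -1.77 in scrib (0.024). All hh brain arrays lay below 4, where a fall could not be seen. The hh differences therefore restate its disc change, and their sizes are not measured. For kn it was -2.69 in lgl (0.0098) and -4.35 in scrib (0.00064). For bi it was -1.53 (0.0067) and -1.55 (0.0078), and for Actbeta -2.63 (0.0021) and -4.83 (3.6e-05). Actbeta lay below 4 on all wild-type and scrib disc arrays and kn on all scrib disc arrays, so the sizes of both Actbeta differences and of the kn difference in scrib are not measured, and the change of Actbeta in scrib discs cannot be read. In lgl the wing selector vg differed by -4.19 (0.00017), the secreted factor Swim by 2.79 (0.0018) and the ligand daw by 3.61 (0.034). Smaller lgl differences were those of ac (-2.17, 0.020, with both wild-type brain arrays below 4), rasp (-1.22, 0.019) and Mad (-1.06, 0.045). In scrib, Dll differed by -2.73 (0.012) and smo by -0.75 (0.014).

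With array weights by group the call of each of these differences was lost, apart from vg in lgl and Actbeta in scrib, whose largest adjusted p over all alternatives was 0.0047 and 0.013. The ac difference did not pass when wild-type disc replicate 1 (-1.96, adjusted p = 0.064) or wild-type brain replicate 1 (-2.09, 0.059) was left out, over a range of 0.0026 to 0.42. The rasp difference was lost without wild-type disc replicate 1 (-0.97, 0.068, range 0.014 to 0.22). Those of daw and Mad were lost without most single arrays, for example without wild-type disc replicate 1 for daw (3.06, 0.10, range 0.0004 to 0.52) and without wild-type disc replicate 2 for Mad (-0.88, 0.14, range 0.033 to 0.39).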

How the results depend on the processing

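Over 936 recomputed changes of the 7 genes, 904 kept their side of the threshold and direction or stayed below the threshold, 14 lost the call, 17 gained it and 1 reversed. The reversal was nkd in lgl brains, 0.08 with all arrays and -0.75 (adjusted p = 0.033, range 0.033 to 1) without both wild-type replicate 1 arrays. Another 65 turned sign below the threshold both times. The number of the 7 genes called in lgl discs was 0 when only the groups compared were fitted, 2 without both wild-type replicate 1 arrays, and 1 to 2 without single arrays. In scrib discs it was 0 with array weights by group, 2 without those 2 arrays, and 1 to 2 without single arrays. In lgl brains it was 1 without those 2 arrays and 0 to 1 without single arrays. In scrib brains it was 1 with quantile normalization, 1 without those 2 arrays, and 0 to 1 without single arrays. Between lgl and scrib it was 1 in discs with only the groups compared fitted and 1 in brains with array weights, and 0 to 1 without single arrays in both. For the difference between tissues it was 0 with array weights and 1 to 3 without single arrays in lgl (ptc, -1.93, and nkd, -1.41, passed without wild-type brain replicate 2), and 0 without a filter, 0 with array weights, 0 without both wild-type replicate 1 arrays and 0 to 1 without single arrays in scrib. Between wild-type discs and brains no count is given, because hh and Wnt6 passed the filter through the disc arrays alone. A fit with the replicate number as a block called 1 gene in lgl brains (tkv, 0.82, adjusted p = 0.043, range 0.043 to 0.47) and 1 in scrib brains (dpp, 1.06, 0.022, range 0.019 to 0.42). Same-numbered arrays correlated by 0.43 between wild-type discs and brains and by -0.17 to 0.17 elsewhere, so the numbers are not taken as pairs. Over all probe sets the calls ranged from 784 to 1753 in lgl discs (1600 as reported), 856 to 2779 in scrib discs (2042), 254 to 3722 in lgl brains (2228), 780 to 3779 in scrib brains (3073), 933 to 3529 between mutant discs (1805), 582 to 1923 between mutant brains (1014), 171 to 2396 and 137 to 2207 for the differences between tissues (1188 and 996), and 1426 to 4459 between wild-type tissues (3775). For pathway genes, 1164 recomputed values of 79 changes included 152 lost calls and 0 reversals. List counts in lgl discs ranged from 2 to 3 (Hedgehog), 1 to 2 (Wingless) and 4 to 6 (Dpp), in scrib discs from 3 to 6, 1 to 3 and 3 to 5, in lgl brains from 0 to 5, 1 to 7 and 1 to 6, and in scrib brains from 1 to 8, 0 to 5 and 2 to 8. Values below 4 are near the background and limit what can be said of hh and Wnt6 in brains.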
